A study of Mus musculus with 4 samples.

Results

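The 30 microRNAs described here are known chiefly from tissues other than skin, and they were chosen by name out of the 710 mouse microRNAs on the array. They comprise 4 neural microRNAs, the liver microRNA mmu-miR-122, the pancreatic islet microRNA mmu-miR-375, 13 microRNAs of embryonic stem cells and 11 of male germ cells. The arrays held total RNA from abdominal skin of female C57BL/6JNarl mice, aged 6 to 8 weeks, taken 24 hr after a topical application. The 2 acetone arrays are of skin that received 100 μl of acetone alone, and the 2 shikonin arrays are of skin that received 100 μl of acetone with 10 μg/μl shikonin, a naphthoquinone of the root of Lithospermum erythrorhizon, so that every skin sample had received the solvent. The labels name no animal behind an array and the study calls the arrays of a treatment biological replicates, so the spread between arrays is that of these 4 samples only. Each microRNA had 8 spots on every array, and its raw level is the median of the filled spots, as fluorescence intensity on a linear scale with no background subtracted.

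A mature microRNA is carried by an Argonaute protein and pairs with messenger RNAs mainly through its seed, bases 2 to 8, which lowers the translation or the stability of those messages. Many microRNAs are made in a narrow range of cells. miR-124 and miR-128 belong to neurons, miR-122 to hepatocytes and miR-375 to the endocrine pancreas, the miR-290 and miR-302 clusters to pluripotent cells and the early embryo, and a large cluster on the X chromosome to the testis. In skin such microRNAs would be made by few cells or none, which is why they are used here to describe the level at which the array reads when little of a microRNA is present.

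Mature sequences from RefSeq (GRCm38.p6) were matched to 24 of the 30 microRNAs, 6 under the same name and 18 under a later name that adds an arm, a letter or a hairpin number. The other 6 are mmu-miR-124, mmu-miR-122, mmu-miR-375, mmu-miR-292-3p, mmu-miR-302a and mmu-miR-463. Of these 24, 10 were germ cell microRNAs on the X chromosome (chrX:66776760-66839121), 8 came from the miR-290 cluster (chr7:3218639-3220837) and 3 from the miR-302 cluster (chr3:127545275-127545687). The array probes are the reverse complements of the mature strands. The first 3 sequences, with the seed in capitals, belong to microRNAs that passed the threshold described below on at least 1 array.
mmu-miR-743a: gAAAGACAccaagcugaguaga
mmu-miR-129-3p: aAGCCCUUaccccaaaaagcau
mmu-miR-128: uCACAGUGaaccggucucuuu
mmu-miR-743a lies at chrX:66776760-66776781 and mmu-miR-129-3p at chr2:94241376-94241397, both on the minus strand, while mmu-miR-128 has a copy on chromosome 1 (chr1:128202404-128202424) and another on chromosome 9 (chr9:112118644-112118664).

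The embryonic stem cell microRNAs are shown because they share seeds, so that probes of closely related sequence can be set beside each other. Among the 24 sequences there were 19 distinct seeds. The seed AAGUGCU, which in mouse embryonic stem cells is known to speed the passage from G1 to S phase, was common to 5 of them from both clusters.
mmu-miR-291a-3p: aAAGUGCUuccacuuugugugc
mmu-miR-294: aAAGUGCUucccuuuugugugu
mmu-miR-295: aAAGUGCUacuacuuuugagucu
mmu-miR-302b: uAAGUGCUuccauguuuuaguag
mmu-miR-302d: uAAGUGCUuccauguuugagugu
A second seed, CUCAAAC, was common to the 5′ strands of a pair of miR-290 cluster hairpins.
mmu-miR-290-5p: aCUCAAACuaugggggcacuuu
mmu-miR-292-5p: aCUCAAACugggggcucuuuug

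The 30 microRNAs lay in a narrow band at the bottom of each array. The floor, defined as the median of their 30 raw levels, was 304 on acetone replicate 1 and 360 on acetone replicate 2, and it was 328 on shikonin replicate 1 and 416 on shikonin replicate 2. The floors of the treatments therefore overlapped, with the lowest on an acetone array and the highest on a shikonin array. The median absolute deviation (MAD, scaled to match an SD) of the 30 levels was 29.7, 23.7, 20.8 and 41.5 in the same order, or 9.75%, 6.59%, 6.33% and 9.98% of the floor. The levels of the 30 microRNAs ran from 256 to 380 on acetone replicate 1, from 304 to 452 on acetone replicate 2, from 280 to 432 on shikonin replicate 1 and from 344 to 544 on shikonin replicate 2. Over all 710 microRNAs the levels reached 30403, 28350.5, 34636 and 20237, so the range of the 30 was a small part of the range of the array.

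**Figure D1:**
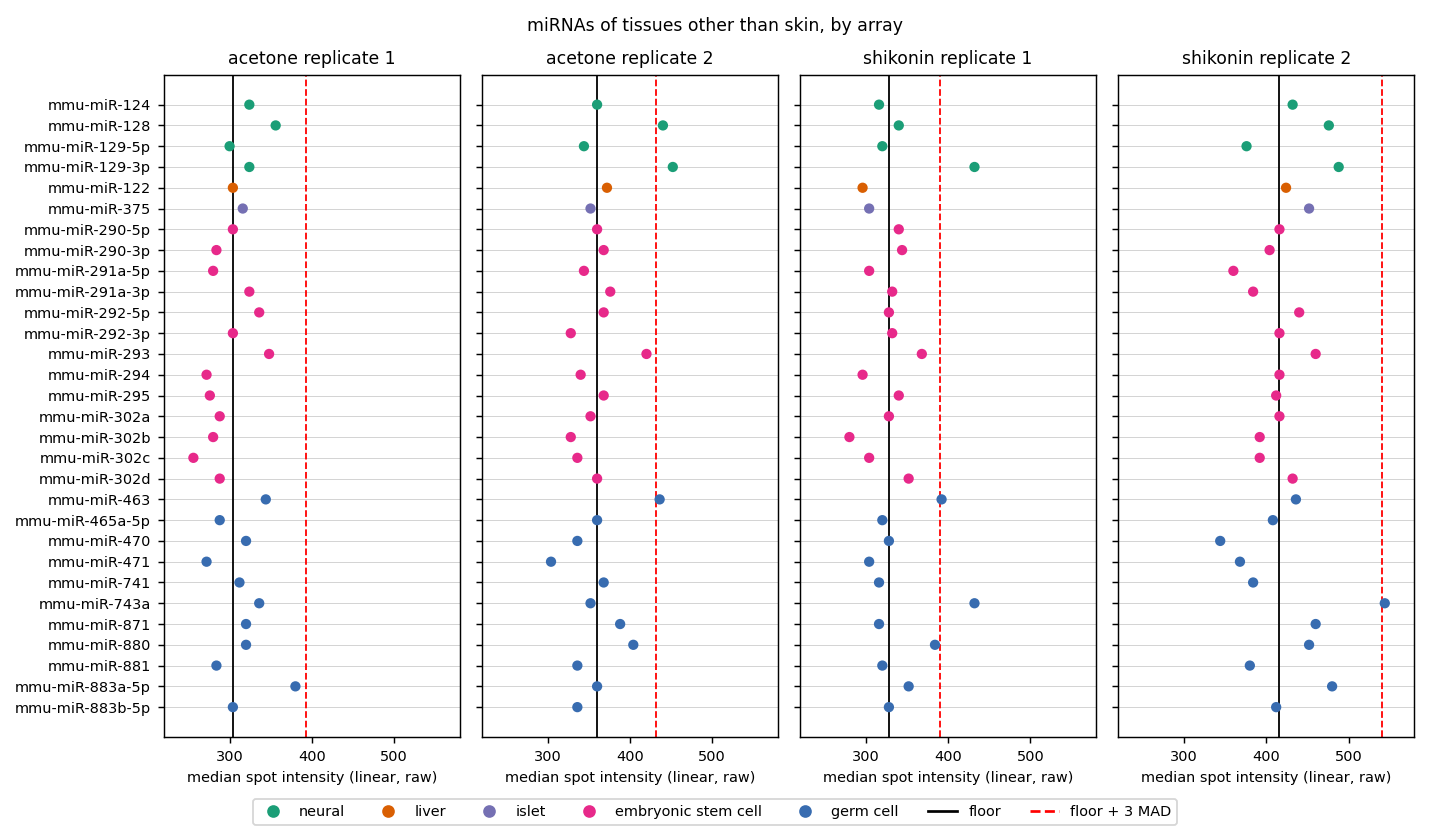
Median raw spot intensity (linear scale) of each of the 30 microRNAs on each of the 4 arrays, coloured by tissue, with the floor as a solid line and the floor plus 3 MAD as a dashed line. The points cluster about floors of 304, 360, 328 and 416, and 0, 3, 3 and 1 of them lie beyond the dashed line.

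The array as a whole also sat close to this floor. The median of all 710 microRNAs was 336, 400, 368 and 460 on the 4 arrays, only 111%, 111%, 112% and 111% of the floor, and 24 or 25 of the 30 microRNAs lay under it on each array. The lowest decile of all microRNAs ended below the floor, at 280, 340, 308 and 380. The skin identity of the RNA was checked on 7 microRNAs of skin epithelium and 4 of fibroblasts and mesenchyme. All 4 of the latter passed the threshold below on every array. Of the epithelial ones, 3 passed it on all 4 arrays and the rest on 2 or 3, failing only on shikonin arrays. mmu-miR-141 read 388 and 384 there, and mmu-miR-200a, mmu-miR-200b and mmu-miR-429 read 472, 512 and 488 on shikonin replicate 2. A level under the threshold thus does not show that a microRNA is absent from skin. Among the epithelial ones mmu-miR-203, which marks the suprabasal epidermis, read 6258 and 6274 after acetone but 2025 and 864 after shikonin. Of the mesenchymal ones mmu-miR-199a-3p, mmu-miR-143 and mmu-miR-145 also read lower on both shikonin arrays. For mmu-miR-199a-3p the levels were 3721 and 3769 after acetone and 976 and 904 after shikonin. mmu-miR-214 was not lower, at 1416 and 2281 after acetone and 1616 and 3341 after shikonin. The part of these changes in the levels described here was not tested.

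Of the 30 microRNAs, 4 rose above the floor on at least 1 array, and 26 did so on none. A microRNA was counted as above the floor when its level exceeded the floor by more than 3 MAD, that is, when it passed 393, 431, 390 or 541 on the array in question. The count on acetone replicate 1 was 0 of 30, where 32.4% of all 710 microRNAs passed. It was 3 of 30 on acetone replicate 2, against 40.1% of all, and 3 of 30 on shikonin replicate 1, against 39.3%. On shikonin replicate 2 it was 1 of 30, against 31%. Of all 710 microRNAs 48.2% passed on at least 1 array. The 30 set the floor themselves, so these counts describe which of them stood apart from the rest of the list.

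**Figure D2:**
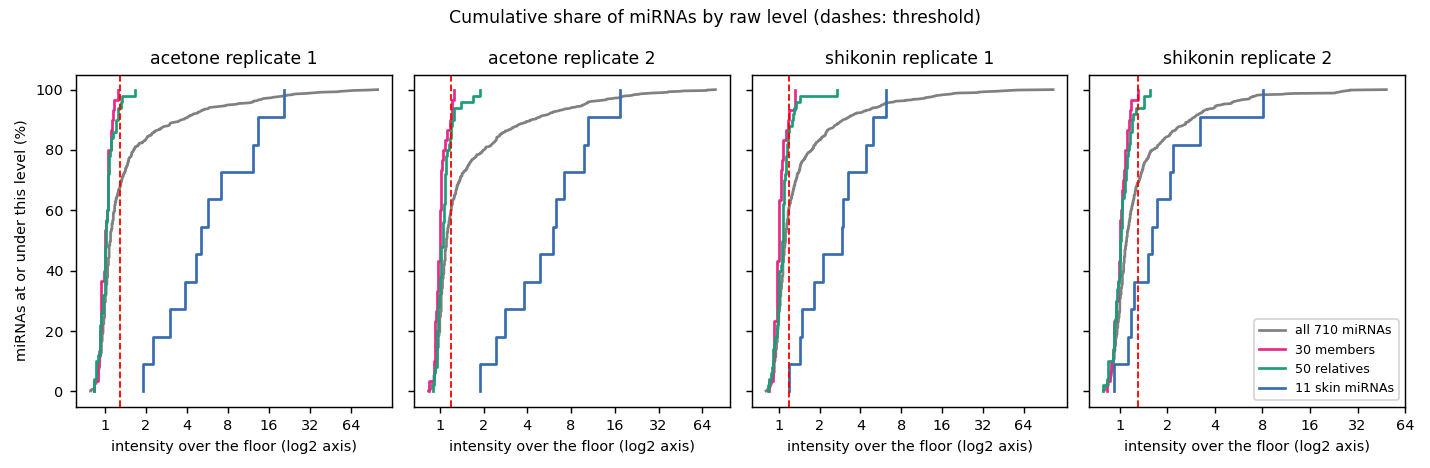
Share of microRNAs (%) at or under each raw level, with the level divided by the floor of the array on a log2 axis, for the 30 microRNAs, 50 relatives of them, 11 skin microRNAs and all 710; the dashed line is the threshold. The curves of the 30 microRNAs and of their relatives rise steeply about 1, while all 710 reach 100, 78.8, 106 and 48.6 times the floor on the 4 arrays.

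mmu-miR-743a, a testis microRNA of the X-linked cluster, was the only one of the 30 that was above the floor on both shikonin arrays and on neither acetone array. This pattern was not counted over all 710 microRNAs, so whether it was unusual is not known. After normalization, 22.4% of all 710 had both shikonin arrays above both acetone arrays. The raw level of mmu-miR-743a was 336 on acetone replicate 1, 352 on acetone replicate 2, 432 on shikonin replicate 1 and 544 on shikonin replicate 2. It exceeded the floor of shikonin replicate 1 by 5.01 MAD and that of shikonin replicate 2 by 3.08 MAD, and at 544 it lay just over the threshold of 541. The result came from most but not all of its 7 filled spots, of which 6 passed the threshold on shikonin replicate 1 and 4 on shikonin replicate 2, and 1 on each acetone array. On shikonin replicate 1 the spots read 400, 288, 432, 392, 496, 504 and 464. On shikonin replicate 2 they read 1152, 592, 544, 472, 512, 472 and 552, in the same order. The spot at 1152 lay far above the others, and without it and its counterparts on the other arrays the medians were 336, 376, 448 and 528, the last of which is under 541. In whole skin, more cells that make a microRNA and more of it in each cell cannot be told apart.

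After quantile normalization the mean log2 level of mmu-miR-743a was 8.51 ± 0.15 after acetone and 8.86 ± 0.01 after shikonin (SD, n = 2 arrays each). The groups did not overlap, and the difference was 0.35 (SE 0.11, 95% confidence interval 0.04 to 0.65). In limma, fitted across all 710 microRNAs, the unadjusted p was 0.034 and the Benjamini-Hochberg adjusted p was 0.239, so the difference did not pass the adjusted threshold of 0.05. Since mmu-miR-743a did not rise above the floor on the acetone arrays, only a bound can be set there, and the shikonin mean was 1.06-fold the level of the acetone threshold and 1.27-fold the measured acetone mean. These ratios leave out the error between arrays. The log2 difference was 0.69 after normexp background correction (adjusted p = 0.173) and 1.33 in the deposited log2 values (adjusted p = 0.981).

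mmu-miR-129-3p, a neural microRNA made from the hairpin on chromosome 2, rose above the floor on 1 array of each treatment. From 6 filled spots, its raw level was 324 and 452 with acetone and 432 and 488 with shikonin. It stood 3.88 MAD over the floor on acetone replicate 2 and 5.01 MAD on shikonin replicate 1, where it shared the highest level of the 30 with mmu-miR-743a. The groups overlapped after normalization, at 8.67 ± 0.15 and 8.77 ± 0.11 (SD, n = 2 each), and the log2 difference of 0.11 (SE 0.12, limma adjusted p = 0.736) was within the spread between arrays. Its spots differed most on shikonin replicate 2, where 2 of them read 1464 and 1232 and the other 4 between 448 and 512.

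mmu-miR-463, a testis microRNA, rose above the floor on the same arrays, with levels of 344 and 436 after acetone and of 392 and 436 after shikonin. It passed the threshold narrowly, on acetone replicate 2 (3.20 MAD over the floor) and on shikonin replicate 1 (3.08 MAD), with 5 and 4 of its 8 spots beyond it. Its normalized levels overlapped between the groups, at 8.69 ± 0.05 and 8.63 ± 0.12 (SD, n = 2 each), and the log2 difference was -0.06 (SE 0.10, limma adjusted p = 0.847). The sign of this difference turned with the scaling, since it was 0.03 with scaling to the 75th percentile, 0.09 with no normalization and 0.50 in the deposited log2 values.

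mmu-miR-128, a microRNA of neurons that in the mouse dampens their excitability, was above the floor on acetone replicate 2 alone. Its levels were 356 and 440 after acetone and 340 and 476 after shikonin, so the raw levels of the treatments overlapped. On acetone replicate 2 it exceeded the floor by 3.37 MAD, with 5 of 8 spots beyond the threshold, while on the other arrays 1 or 2 spots were. Both acetone arrays lay above both shikonin arrays after normalization, at 8.72 ± 0.03 against 8.58 ± 0.11 (SD, n = 2 each), which was the lowest log2 difference of the 30 (-0.14, SE 0.10, limma adjusted p = 0.562). No fold is given, because the bound set by the shikonin threshold lies above the acetone mean. Without normalization the difference had the opposite sign, at 0.02.

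**Figure D3:**
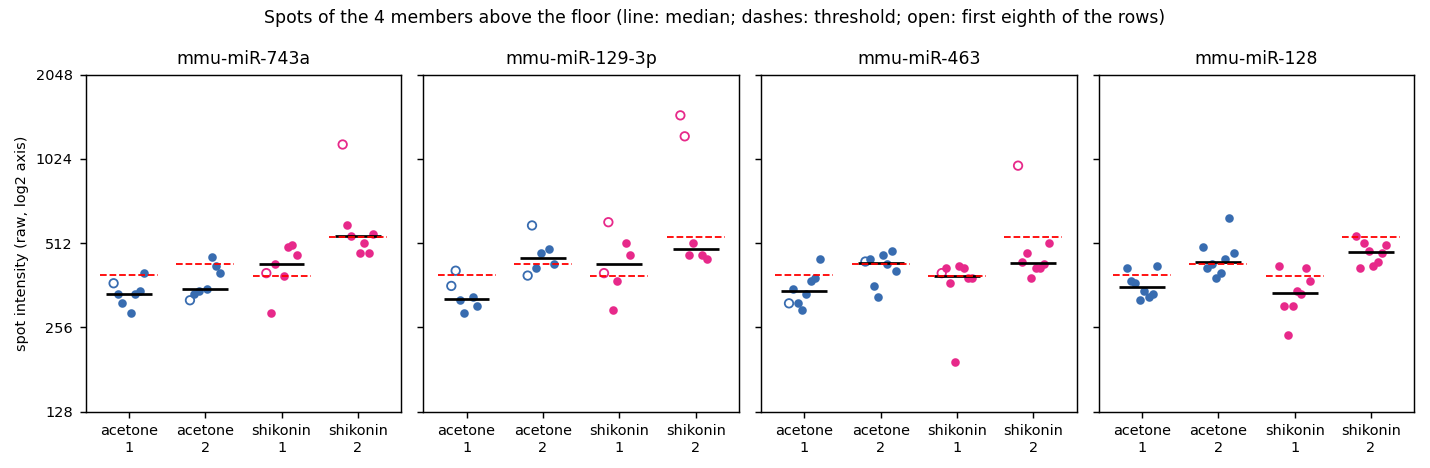
Raw intensity (log2 axis) of every filled spot of the 4 microRNAs that rose above the floor, with the median of the spots (line), the threshold of the array (dashes) and spots in rows 1 to 710 of the table drawn open. The medians of mmu-miR-743a are over the threshold at 432 and 544 on the shikonin arrays and under it at 336 and 352 on the acetone arrays, and the highest spots of shikonin replicate 2 are open.

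Another 3 microRNAs ended just under the threshold. mmu-miR-880 of the testis read 384 on shikonin replicate 1, 2.70 MAD over the floor. mmu-miR-883a-5p of the testis was the highest of the 30 on acetone replicate 1, at 380 or 2.56 MAD over the floor. mmu-miR-293 of embryonic stem cells read 420 on acetone replicate 2, 2.53 MAD over the floor. With a threshold of 2 MAD these 3 joined the list, which then held 7 microRNAs, and with 5 MAD only mmu-miR-129-3p and mmu-miR-743a remained, each on shikonin replicate 1.

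By tissue, neural and germ cell microRNAs made up the 4 that rose above the floor, and no liver, islet or embryonic stem cell microRNA did. The 4 neural microRNAs had medians of 324, 400, 330 and 454 on the 4 arrays, although mmu-miR-124, which is abundant in neurons and guides their differentiation, read only 324, 360, 316 and 432. mmu-miR-129-5p, the opposite strand to mmu-miR-129-3p, lay under the floor on all 4 arrays, at 300, 344, 320 and 376. mmu-miR-122, the main microRNA of hepatocytes, read 304, 372, 296 and 424, and mmu-miR-375, which restrains insulin secretion in the islet, read 316, 352, 304 and 452, so neither was above the floor on any array. The 11 germ cell microRNAs ran from 272 to 380, from 304 to 436, from 304 to 432 and from 344 to 544, with medians of 320, 360, 328 and 412, close to the floor.

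The 13 embryonic stem cell microRNAs ranged from 256 to 348 on acetone replicate 1, from 328 to 420 on acetone replicate 2, from 280 to 368 on shikonin replicate 1 and from 360 to 460 on shikonin replicate 2, and 0 of 13 passed the threshold on any array. The 5 that share the seed AAGUGCU had levels of 272 to 324, 328 to 376, 280 to 352 and 384 to 432, on either side of the floor. No member of the miR-290 cluster of the pluripotent cell or the miR-302 cluster of the epiblast thus stood apart from the rest of the list. These 13 helped to set the floor, so their place about it does not show whether they were present. The other strands and cluster mates of this tissue did not help to set it, and 0 of 9 rose above it on any array. Over all 710 microRNAs 48.2% passed the threshold on at least 1 array.

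Part of the order within the floor recurred from array to array. mmu-miR-128, mmu-miR-129-3p, mmu-miR-293, mmu-miR-463 and mmu-miR-880 lay over the floor on all 4 arrays. Under the floor on all 4 were mmu-miR-129-5p, mmu-miR-291a-5p, mmu-miR-302b, mmu-miR-302c, mmu-miR-471 and mmu-miR-881, and the other 19 met neither condition. Pearson's r of the raw log2 levels of the 30 between pairs of arrays was 0.53 to 0.64. These points share their probes and their rows in the table, so the correlation is a description only. The brightest by mean normalized level were mmu-miR-129-3p (8.72), mmu-miR-743a (8.68) and mmu-miR-463 (8.66). The dimmest were mmu-miR-471 of the testis (8.28), which read 272, 304, 304 and 368, mmu-miR-302b (8.32), which read 280, 328, 280 and 392, and mmu-miR-302c (8.33), which read 256, 336, 304 and 392.

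The spots of a microRNA varied much alike on 3 arrays and more widely on shikonin replicate 2. Among the 30, the median SD of the log2 spot intensities was 0.25, 0.21, 0.26 and 0.47 on the 4 arrays, against 0.26, 0.22, 0.28 and 0.39 over all microRNAs. Spots of 1 array are no replicates of a treatment, so this spread describes the array and not the skin. Single spots of the 30 ran from 160 to 496 on acetone replicate 1, from 224 to 776 on acetone replicate 2, from 192 to 616 on shikonin replicate 1 and from 264 to 1680 on shikonin replicate 2. An SD over 0.5 was found for 13 of the 30 on shikonin replicate 2 and for 0 on each of the other arrays. The share of all microRNAs with such an SD was not counted.

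The wide spread on shikonin replicate 2 lay in rows 1 to 710 of the spot table, out of 5680. The 31 filled spots of the 30 microRNAs in those rows had a median of 928, while in the other 7 blocks of 710 rows the median was 384 to 448. In the same rows the other arrays had medians of 368, 364 and 400. All spots of shikonin replicate 2 together had a median of 972 in those rows and of 408 to 552 in the others. On that array 23 spots of 17 of the 30 microRNAs exceeded 700, and 22 of these spots lay in rows 1 to 710. The only other spot over 700 was of mmu-miR-291a-3p, at 776 on acetone replicate 2. Without those rows the median SD of the 30 was 0.24, 0.20, 0.25 and 0.21. The sources used here do not state how the order of rows relates to a position on the chip.

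**Figure D4:**
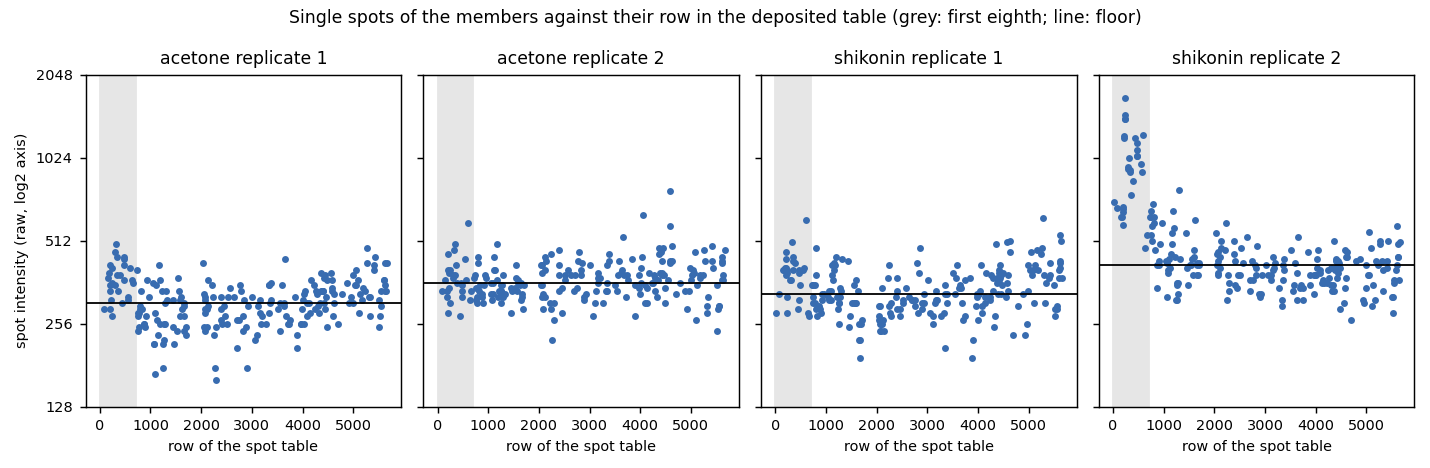
Raw intensity (log2 axis) of each filled spot of the 30 microRNAs against its row in the deposited table, with rows 1 to 710 in grey and the floor as a line. On shikonin replicate 2 the spots in the grey rows have a median of 928, and on the other 3 arrays they have medians of 364 to 400.

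The 3 microRNAs with the widest mean spread between spots each had spots in those rows. So did 21 of the 30 microRNAs in all, so this alone does not set the 3 apart. mmu-miR-291a-3p had a mean SD of 0.44, and its spots on shikonin replicate 2 read 1408 in rows 1 to 710 and 336 to 496 elsewhere. mmu-miR-375 had a mean SD of 0.42, and 0.84 on shikonin replicate 2 alone, where its spots read 1680, 904, 904, 480, 312, 424, 400 and 384 in the order of the rows. mmu-miR-129-3p followed with a mean SD of 0.39. When rows 1 to 710 were left out, a choice made after seeing the data, the floors and thresholds were taken anew and the threshold of shikonin replicate 2 fell from 541 to 507. Against these, mmu-miR-743a was above the floor on both shikonin arrays (448 and 528) and mmu-miR-129-3p on acetone replicate 2 and shikonin replicate 1, while mmu-miR-128 and mmu-miR-463 were above it on none. The share of all 710 microRNAs past the new thresholds was not counted.

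Empty spots were also shared between arrays. Of the 240 spots of the 30 microRNAs, 18 were empty on each acetone array (7.5%) and 11 on each shikonin array (4.58%), and the same 11 were empty on all 4. All 8 spots were filled on every array for 16 of the 30, and the fewest filled spots were 5, for mmu-miR-291a-5p on the acetone arrays. The deviations of single spots from the median of their microRNA had a Pearson's r of 0.44 between the acetone arrays (222 spots) and 0.29 between the shikonin arrays (229 spots). Across treatments it ran from 0.07, between acetone replicate 2 and shikonin replicate 2, to 0.52, between acetone replicate 2 and shikonin replicate 1. Such spots share their row and probe, and the correlation is a description only.

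None of the 30 microRNAs passed the test between shikonin-treated and acetone-treated skin. In limma 0 of 30 had an adjusted p under 0.05 (range 0.239 to 0.999), where 0.282% of all 710 did, and at an unadjusted p under 0.05 there was 1 higher in shikonin, mmu-miR-743a, against 6.62% of all microRNAs, and 0 lower, against 11%. The median log2 difference of the 30 was 0.01 and that of all microRNAs -0.01. In size, without regard to sign, the median difference was 0.056 among the 30 and 0.122 over all. The estimates ran from -0.14 to 0.35, with 16 above 0 and 14 below.

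The 2 shikonin arrays lay above both acetone arrays for 5 of the 30, against 22.4% of all microRNAs, and below both for 5, against 26.8%. The 5 above were mmu-miR-290-5p, mmu-miR-302a, mmu-miR-302c, mmu-miR-302d and mmu-miR-743a. The 5 below were mmu-miR-128, mmu-miR-291a-3p, mmu-miR-741, mmu-miR-293 and mmu-miR-291a-5p. Next to mmu-miR-743a the highest estimate was that of mmu-miR-302d, with normalized levels of 8.41 ± 0.03 in acetone and 8.54 ± 0.02 in shikonin (SD, n = 2 each, limma adjusted p = 0.534). Next to mmu-miR-128 the lowest were mmu-miR-291a-3p, at 8.54 ± 0.03 and 8.42 ± 0.07 (adjusted p = 0.579), and mmu-miR-741 of the testis, at 8.49 ± 0.02 and 8.38 ± 0.02 (adjusted p = 0.582). These 3 were not above the floor in either group, so no fold is given for them, and members of the miR-290 cluster stood on both sides.

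**Figure D5:**
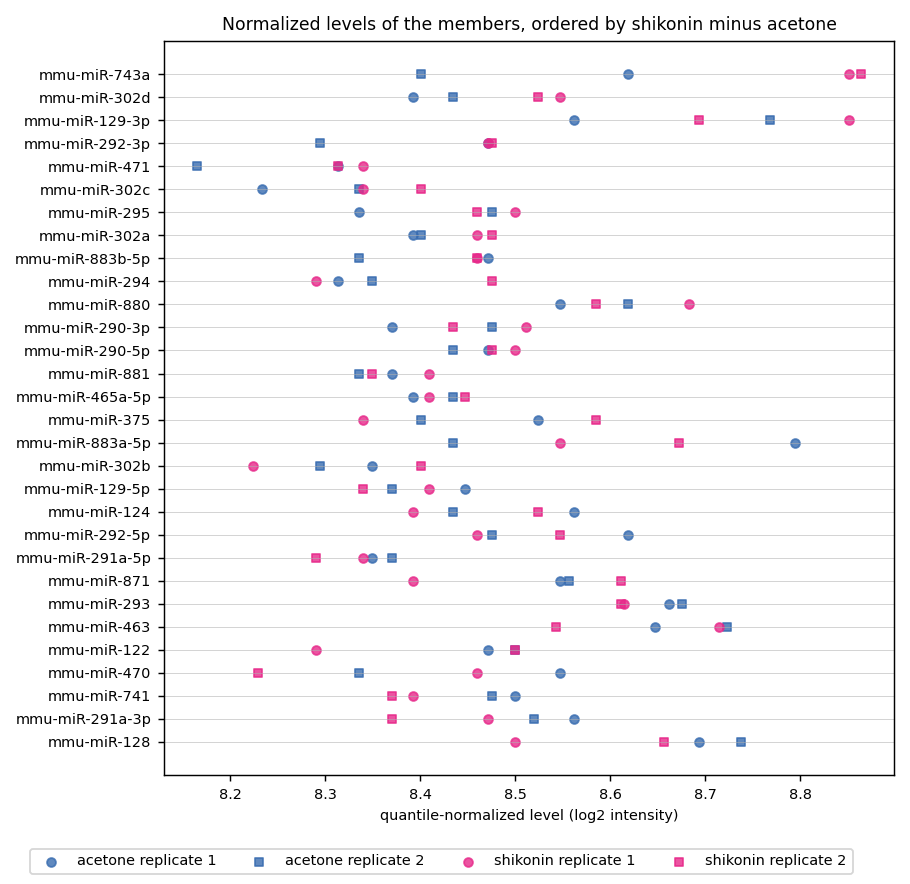
Quantile-normalized log2 level of each of the 30 microRNAs on each array (circles for replicate 1, squares for replicate 2), ordered by the difference between shikonin and acetone. The 2 shikonin points of mmu-miR-743a, with a mean of 8.86, lie to the right of its acetone points, with a mean of 8.51, and for 20 of the 30 microRNAs the groups overlap.

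Relatives of the 30, that is their other strands, cluster mates and further microRNAs of the same tissues, were also mostly at the floor. Of 55 listed, 50 were on the array. Among these, 10 were above the floor on at least 1 array, against 48.2% of all 710 microRNAs, and 40 were above it on none. Only mmu-miR-194, a microRNA of liver and intestine, was above it on all 4 arrays, at 504, 684, 472 and 588. The other liver microRNA on the array, mmu-miR-192, passed on 2, and of 13 neural relatives 2 passed on any array. Of the 26 germ cell relatives 6 passed on at least 1, and the highest of them, picked out after its values were seen, was mmu-miR-878-3p of the same X-linked cluster as mmu-miR-743a, at 368, 608, 888 and 592. Its log2 difference between shikonin and acetone was 0.61 (SE 0.38, limma adjusted p = 0.513), within the spread between arrays. mmu-miR-881*, whose other strand mmu-miR-881 lay under the floor on every array, read 328, 452, 408 and 648.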

How the data were processed

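The authors hybridized total RNA of skin to Geniom biochips (febit), on which a captured microRNA primes an extension with biotinylated nucleotides. The deposited spot table gives a raw, linear intensity for every spot, with no background columns. The deposited value table holds 1 log2 value per microRNA and array. The methods of the study name quantile normalization, but the medians of the 4 columns of this table differ (6.05, 5.75, 6.43 and 6.11), and the sources used here do not say how spots were summarised or background was removed, so it served only as an alternative. Its values ranked the 710 microRNAs as the raw medians did on both replicate 2 arrays (Spearman's r of 1). On the replicate 1 arrays the order differed (0.914 for acetone and 0.921 for shikonin), so the 2 columns of a treatment are not alike.

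The median of the filled spots was taken per microRNA and array. For the comparison these medians were quantile normalized between arrays, floored at 1 and put on the log2 scale. Shikonin and acetone were compared over all 710 microRNAs in limma 3.58.1 (R 4.3.3; lmFit and eBayes, two-sided, Benjamini-Hochberg). For a microRNA not above the floor on any array of the dimmer group, the bound replaced its normalized level, where lower, by the lowest level above the threshold on that array. The code was tested on simulated data.

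The 30 microRNAs and the list of relatives were chosen with earlier results of these data known. Described in full were those above the floor on at least 1 array, 3 each at the top and the bottom of the differences, the 3 brightest, the 3 dimmest and the 3 with the widest spread between spots. Sequences were matched by name. The number of arrays, 2 per treatment, limits the precision of every comparison. Alternatives were other normalizations, background corrections, spot summaries, thresholds and floors, a filter on dim microRNAs, an intensity trend, a replicate block and leaving out each array.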

Additional observations from a re-analysis of the deposited data

How the results depend on the processing

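The adjusted threshold was passed by 0 of the microRNAs tested under each of 16 alternatives (all 30, or 4 with the filter on dim microRNAs), and mmu-miR-743a had a positive log2 difference in 16 of 16 (0.23 to 1.33, adjusted p 0.0566 to 0.981). Its unadjusted p was under 0.05 in 9. With the intensity trend its adjusted p was 0.0566, and leaving out each array in turn gave differences of 0.23 to 0.45. Among all microRNAs tested, 83 passed with no normalization, 38 with the intensity trend and 35 with the crossed replicate block. Cyclic loess, the deposited values, the replicate block and the run without rows 1 to 710 called 0 of all. There the 0 of the 30 does not set them apart. The other fits to all 4 arrays called 1 to 6 of all. Fits without an array keep a single array in a treatment, so their calls are not read.

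The count of microRNAs above the floor was 4, and it was 7 at 2 MAD, 2 at 5 MAD, 2 without rows 1 to 710, 0 in the deposited value table (where the MAD of the 30 was 0.84 to 1.85 log2 units), 5 with the floor from the other 29, 5 with the floor from the dimmer microRNAs of the whole array, 3 with the mean of log2 spots and 4 with normexp. With the mean of log2 spots mmu-miR-743a was above the floor on shikonin replicate 1 only. Leaving out each array gave 3 to 4. The share of all 710 microRNAs was counted for the main 3 MAD threshold only (48.2% on at least 1 array). The other counts therefore have no background to be read against. Taking the lowest of the 30 as the floor gave 256, 304, 280 and 344. The spot spread of shikonin replicate 2 (SD 0.47) was 0.21 as MAD and 0.21 without rows 1 to 710.

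The log2 difference of mmu-miR-463 (-0.06) became 0.0255 with scaling to the 75th percentile, 0.0942 with no normalization and 0.50 in the value table, and lay between -0.147 and 0.0288 when each array was left out (0.0288 without shikonin replicate 2). That of mmu-miR-128 (-0.14) was 0.0236 with no normalization, which moved the median of all microRNAs to 0.14, -0.05 with the 75th percentile, -0.28 with normexp, -0.23 with the mean of log2 spots (unadjusted p = 0.040, limma) and -1.25 in the value table, and lay between -0.21 (without shikonin replicate 2) and -0.06 (without shikonin replicate 1). That of mmu-miR-129-3p (0.11) was 0.19, 0.26, 0.21, 0.31 and 1.69 with the 75th percentile, no normalization, normexp, mean of log2 spots and value table. It was 6.1e-06 without acetone replicate 1, 0.21 without acetone replicate 2, 0.03 without shikonin replicate 1 and 0.19 without shikonin replicate 2. The cause was not tested.

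The deviations of same-numbered arrays from their group means had r = -0.28 over 710 microRNAs. With 2 arrays per treatment this cannot show whether same-numbered arrays share a batch. In the deposited log2 values they did share a trait. Spearman's r with the raw medians was 1 on both replicate 2 arrays, and 0.914 and 0.921 on the replicate 1 arrays of acetone and shikonin. The replicate block called 0 of the 30 and 0 of all, and the crossed block, added after seeing the data, 0 and 35.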
